A study of Mus musculus with 22 samples.

Results

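The vitamin D receptor (VDR) was mapped by ChIP-seq in MC3T3-E1 cells, a mouse calvarial line that is committed to the osteoblast lineage and lays down mineralized matrix in culture. This account is about 1373 VDR sites of undifferentiated cells that were occupied with hormone, carried 3 partner factors, and were not called again in differentiated cells. The sites were chosen by overlap of at least 1 bp from the list of 7000 VDR sites (19.6% of them) called in undifferentiated cells with calcitriol on chromosomes 1 to 19 and X. Each overlapped no VDR site of undifferentiated cells under vehicle and no VDR site of differentiated cells with calcitriol. Each also overlapped a site of the retinoid X receptor (RXR), of C/EBPβ and of RUNX2 in undifferentiated cells with calcitriol. They are called co-bound lost sites below. Of 6214 VDR sites called with calcitriol and not under vehicle, 5772 (92.9%) were not called in differentiated cells, and 1373 of these (23.8%) had all 3 partners. Among the 6214, 1513 had all 3 partners, and 1373 of those (90.7%) were not called again, near the 92.9% of all. The differentiated list with calcitriol held 871 VDR sites, so it could overlap only a small part of the 7000. These figures are set by the rule and were not tested.

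The differentiated cells had been cultured for 15 days with ascorbic acid and glycerol-2-phosphate, and the undifferentiated cells without them. Both were exposed for 3 h to 100 nM of calcitriol, the active hormone 1,25(OH)2D3, or to ethanol vehicle, at passages 5 to 12. Calcitriol lists were used for all 4 factors and for the marks H4K5ac, H3K9ac, H3K4me1, H3K4me3 and H3K36me3 in both states, and vehicle lists for VDR and RXR. The mineralized cultures alone went through homogenization and a sucrose spin to remove matrix, so that step and the state cannot be told apart. The sample labels give H4K5ac, while the protocol text gives H3K5Ac, and the labels were followed. Each group was represented by 1 list, made by the authors as the overlap of replicates, so no difference below has a replicate check. H3K4me3 lay within 1 kb of a start at 7 of 10 osteoblast lineage genes in differentiated and in undifferentiated cells alike (not at Alpl, Bglap or Ibsp). It lay there at 1 of 10 genes of other cell types in differentiated cells (Cd34) and at 2 in undifferentiated cells (Cd34 and Col2a1).

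VDR is a nuclear receptor that binds DNA mostly as a heterodimer with RXR, classically at a direct repeat of 2 hexamers spaced by 3 bases, the DR3 element. RUNX2 is the runt-domain factor required for osteoblast commitment, and C/EBPβ is a basic leucine zipper factor active in mesenchymal lineages. Enhancers bound by several such factors at once usually carry H3K4me1 and acetylated histones, whereas H3K4me3 marks promoters and H3K36me3 lies along transcribed gene bodies.

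The DNA at such sites is shown for 8 bone and signalling genes, because it shows which elements these sites have and lack. The 8 are the list genes with most co-bound lost sites within 100 kb, ties going to the gene with the nearest one. A site holding a DR3 match was to be preferred, but none lay near these genes, so the site nearest to each start is given. The sequences are the plus strand of mm9, 5′ to 3′, 201 bp each. Capitals mark exact RUNX matches and exact C/EBP matches, with the letters given further on.
Csf1 (chr3:107572787-107572987): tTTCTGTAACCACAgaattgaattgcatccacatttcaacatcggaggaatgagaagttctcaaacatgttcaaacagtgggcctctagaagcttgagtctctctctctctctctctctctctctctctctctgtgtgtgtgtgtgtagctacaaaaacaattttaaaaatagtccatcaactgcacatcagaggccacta
Col1a2 (chr6:4438404-4438604): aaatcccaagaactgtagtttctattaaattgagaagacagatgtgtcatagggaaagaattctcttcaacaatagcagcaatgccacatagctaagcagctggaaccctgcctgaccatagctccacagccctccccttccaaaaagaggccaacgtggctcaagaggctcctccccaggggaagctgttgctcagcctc
Tgfbr3 (chr5:107553535-107553735): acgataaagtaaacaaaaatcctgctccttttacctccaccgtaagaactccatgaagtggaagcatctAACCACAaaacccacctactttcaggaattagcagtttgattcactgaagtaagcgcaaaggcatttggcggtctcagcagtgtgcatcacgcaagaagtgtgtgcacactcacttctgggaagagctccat
Dmp1 (chr5:104630603-104630803): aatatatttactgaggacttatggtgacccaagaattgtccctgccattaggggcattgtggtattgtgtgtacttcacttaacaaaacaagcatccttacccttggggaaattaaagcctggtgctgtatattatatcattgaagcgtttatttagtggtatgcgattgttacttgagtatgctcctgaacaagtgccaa
Mgp (chr6:136830361-136830561): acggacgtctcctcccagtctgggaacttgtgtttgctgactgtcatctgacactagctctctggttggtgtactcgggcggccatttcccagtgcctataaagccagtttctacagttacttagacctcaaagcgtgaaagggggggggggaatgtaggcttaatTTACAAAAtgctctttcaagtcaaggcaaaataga
Sema3a (chr5:13384797-13384997): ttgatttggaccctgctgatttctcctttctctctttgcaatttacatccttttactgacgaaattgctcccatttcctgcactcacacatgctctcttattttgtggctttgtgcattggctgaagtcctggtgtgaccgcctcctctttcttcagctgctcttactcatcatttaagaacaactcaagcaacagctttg
Wisp2 (chr2:163626667-163626867): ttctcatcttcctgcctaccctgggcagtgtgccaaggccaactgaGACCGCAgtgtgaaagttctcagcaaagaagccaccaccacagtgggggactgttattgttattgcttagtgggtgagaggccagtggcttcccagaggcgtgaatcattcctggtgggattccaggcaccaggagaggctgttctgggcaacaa
Tnfsf11 (chr14:78730324-78730524): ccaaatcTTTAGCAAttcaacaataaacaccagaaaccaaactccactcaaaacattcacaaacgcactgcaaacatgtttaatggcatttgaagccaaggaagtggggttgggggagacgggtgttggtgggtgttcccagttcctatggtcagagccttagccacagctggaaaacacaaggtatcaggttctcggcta

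No DR3 match with at most 1 mismatch was present in these 8 regions, and their closest stretch differed from the DR3 consensus at 2 to 4 positions. The region upstream of Csf1, the gene of macrophage colony-stimulating factor, held a C/EBP and a RUNX match that share 2 bases. Regions at Tgfbr3 and Wisp2 held a RUNX match, and those at Mgp and Tnfsf11 a C/EBP match. Those at Col1a2, Dmp1 and Sema3a held neither. RXR was called in differentiated cells with calcitriol at all 8 regions, C/EBPβ at those of Csf1, Tgfbr3, Sema3a and Tnfsf11, and RUNX2 at those of Csf1, Tgfbr3 and Sema3a.

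Other kinds of sites served for comparison. The first, co-bound kept sites, were 140 VDR sites with the same hormone dependence and the same 3 partners that were called again in differentiated cells. The second were 1405 lost sites that had RXR with exactly 1 of C/EBPβ and RUNX2. The third, VDR-free co-bound sites, were 527 RXR sites of undifferentiated cells with C/EBPβ and RUNX2. They overlapped no VDR site of undifferentiated cells, with calcitriol or under vehicle, and none of differentiated cells with calcitriol. The VDR list of differentiated cells under vehicle was not used for this choice. Shares were set against each other by Fisher's exact test (two-sided), and p-values were adjusted by the Benjamini-Hochberg method over the 23 features of a comparison (21 for sites with 1 partner), with 0.05 as the threshold. Intervals are exact Clopper-Pearson 95% intervals for shares and 95% Woolf intervals for odds ratios. They and the p-values cover the counting of sites only, and neighbouring sites are not independent.

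The overlaps that define the sites were mostly large. The median overlap of a co-bound lost site was 169 bp with RXR, 162 bp with RUNX2 and 141 bp with C/EBPβ. Overlaps of 1 to 50 bp were found with RXR at 32 sites, with RUNX2 at 45 and with C/EBPβ at 116. Just outside the rule, 7 lost sites with the other 2 partners had an RXR site within 50 bp that did not overlap, 13 had such a RUNX2 site and 47 such a C/EBPβ site. No co-bound lost site had a differentiated VDR site within 50 bp, 20 had one within 1 kb and 79 within 10 kb. The median distance to the nearest VDR site of differentiated cells was 478 kb.

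Within the co-bound lost sites the centres of RXR and VDR lay closest together. In undifferentiated cells the median distance from the VDR centre was 32.0 bp for RXR (quartiles 14.0 and 58.0), 39.0 bp for RUNX2 (17.0 and 71.0) and 60.0 bp for C/EBPβ (29.0 and 105). RXR was the nearest partner at 579 sites (42.2%), RUNX2 at 489 (35.6%) and C/EBPβ at 286 (20.8%). Where a partner was called in differentiated cells, the median distances of its centre from the VDR centre were 37.0 bp for RXR, 44.5 bp for RUNX2 and 58.0 bp for C/EBPβ. The overlap rule caps every distance at 200 bp. At co-bound kept sites in undifferentiated cells RXR lay at a median of 22.5 bp, RUNX2 at 44.0 bp and C/EBPβ at 63.5 bp. These distances were not tested.

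**Figure D1:**
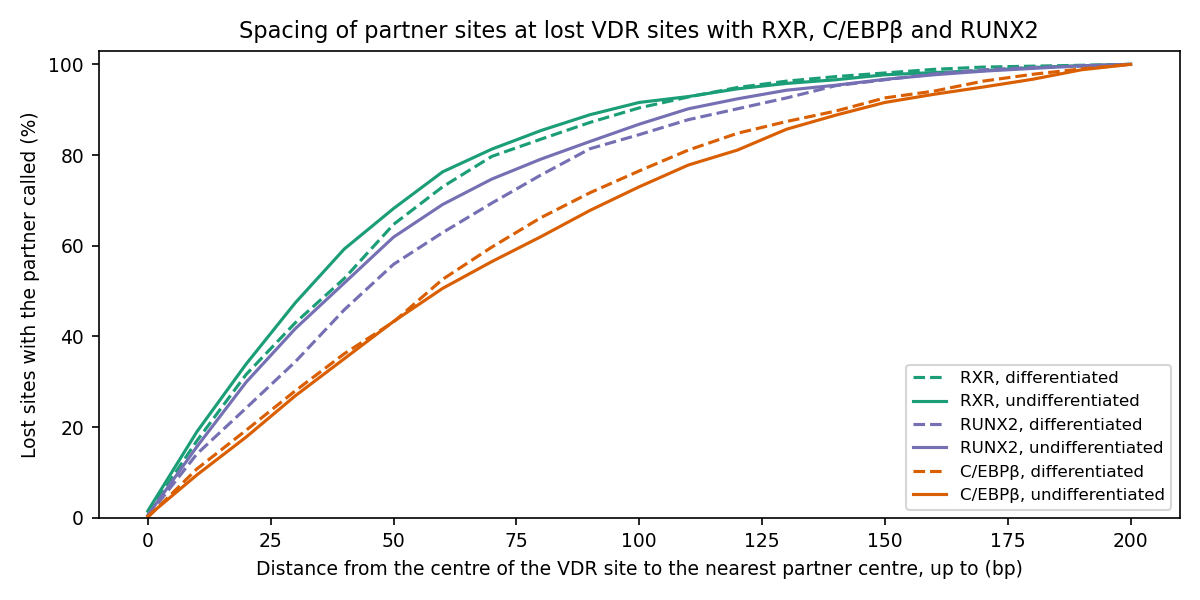
Cumulative share of co-bound lost sites (%) whose nearest partner centre lies within a given distance (bp) of the VDR centre, for each partner in differentiated (dashed) and undifferentiated cells (solid). The curves rise fastest for RXR and slowest for C/EBPβ, with 68.2%, 61.9% and 43.3% of sites within 50 bp for RXR, RUNX2 and C/EBPβ in undifferentiated cells.

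RXR was still called in differentiated cells at most co-bound lost sites. With calcitriol an RXR site lay at 1124 of the 1373 co-bound lost sites (81.9%, 79.7 to 83.9), where 61.6% of all 7591 undifferentiated RXR sites overlapped a differentiated one. Co-bound kept sites had RXR still more often, at 138 of 140 (98.6%; odds ratio 0.0654, interval 0.0161 to 0.266, exact-test adjusted p = 2.15e-08). Kept sites were chosen by a VDR call in the same state and treatment, and VDR binds mostly with RXR. The test against kept sites is therefore not independent of that choice, and no conclusion is drawn from it. Lost sites with 1 partner had RXR less often, at 977 of 1405 (69.5%; odds ratio 1.98, interval 1.65 to 2.36, exact-test adjusted p = 2.32e-13). VDR-free co-bound sites had it least often among these groups, at 273 of 527 (51.8%; odds ratio 4.20, interval 3.37 to 5.23, exact-test adjusted p = 1.49e-36).

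C/EBPβ and RUNX2 were each called again at a clear majority of co-bound lost sites. C/EBPβ was called at 946 sites (68.9%, 66.4 to 71.3), near the 64.7% of all 17950 undifferentiated C/EBPβ sites. RUNX2 was called at 918 sites (66.9%, 64.3 to 69.3), above the 43.1% of all 12012 undifferentiated RUNX2 sites. At co-bound kept sites the shares were 71.4% for C/EBPβ and 67.1% for RUNX2, and neither difference passed the test (odds ratios 0.886, interval 0.604 to 1.30, and 0.987, 0.682 to 1.43; exact-test adjusted p = 0.835 and 1.00). Those intervals still allow a difference in either direction. Against lost sites with 1 partner, taken only where that partner was C/EBPβ or RUNX2 in turn, both factors were called again more often at co-bound lost sites. For C/EBPβ the other share was 210 of 348 (60.3%; odds ratio 1.46, interval 1.14 to 1.86, exact-test adjusted p = 0.00468), and for RUNX2 it was 591 of 1057 (55.9%; odds ratio 1.59, interval 1.35 to 1.88, exact-test adjusted p = 1.06e-07). Against VDR-free co-bound sites RUNX2 was more frequent (66.9% against 56.0%; odds ratio 1.59, interval 1.29 to 1.95, exact-test adjusted p = 3.45e-05), while C/EBPβ did not pass the test (68.9% against 66.4%; odds ratio 1.12, interval 0.905 to 1.39, exact-test adjusted p = 0.341).

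**Figure D2:**
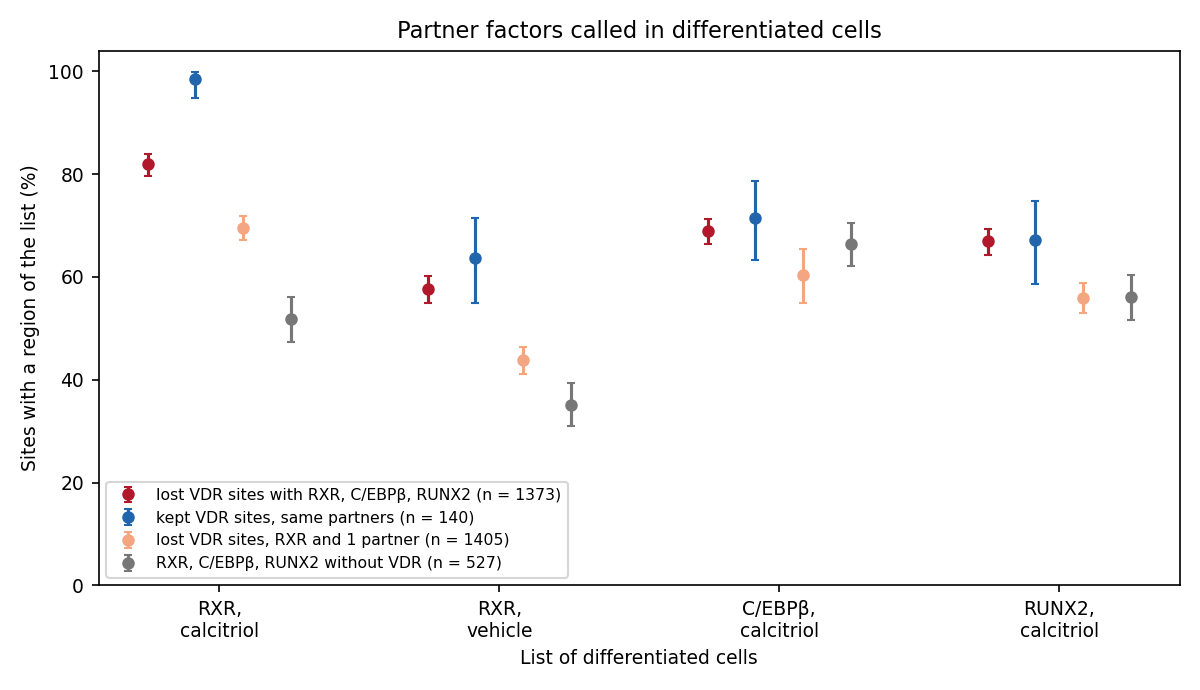
Share of sites (%, points, with exact 95% intervals) that overlap a site of each list of differentiated cells, for co-bound lost sites and the 3 comparison groups. For lost sites with 1 partner, C/EBPβ is shown over the 348 sites that had it and RUNX2 over 1057. For RXR with calcitriol the points stand at 81.9% for co-bound lost sites, 98.6% for kept sites, 69.5% for lost sites with 1 partner and 51.8% for VDR-free sites.

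The lists under vehicle show how far RXR was present without hormone. In differentiated cells under vehicle RXR lay at 791 co-bound lost sites (57.6%), where 40.7% of all undifferentiated RXR sites did. At 354 sites (25.8%) RXR was called in differentiated cells with calcitriol but not under vehicle, close to the 23.4% of all undifferentiated RXR sites and beside 35.7% of co-bound kept sites. At 21 sites it was called under vehicle alone. In undifferentiated cells under vehicle RXR lay at 1209 sites (88.1%), where 69.3% of all RXR sites had a vehicle counterpart. That share was above the 64.3% of co-bound kept sites (odds ratio 4.10, interval 2.79 to 6.00, exact-test adjusted p = 1.07e-10), the 75.4% of lost sites with 1 partner (odds ratio 2.40, interval 1.96 to 2.94, exact-test adjusted p = 1.08e-16) and the 76.1% of VDR-free co-bound sites (odds ratio 2.32, interval 1.79 to 3.00, exact-test adjusted p = 1.48e-09). The undifferentiated vehicle list shares most of its sites with the RXR list that the rule used. In differentiated cells the vehicle share exceeded that of lost sites with 1 partner (43.8%; odds ratio 1.75, exact-test adjusted p = 1.57e-12) and of VDR-free co-bound sites (35.1%; odds ratio 2.51, exact-test adjusted p = 1.35e-17). Against the 63.6% of kept sites it did not pass the test (odds ratio 0.779, interval 0.543 to 1.12, exact-test adjusted p = 0.587).

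All 3 partners were called together in differentiated cells at 634 co-bound lost sites (46.2%, 43.5 to 48.9), which was the most frequent combination. At 444 sites (32.3%) 2 partners were called, at 198 (14.4%) 1 was called, and at 97 (7.06%, 5.77 to 8.55) none was. Among sites with 2 partners, RXR with C/EBPβ (200) and RXR with RUNX2 (191) were about equally common, and C/EBPβ with RUNX2 was rarer (53). RXR alone was called at 99 sites, C/EBPβ alone at 59 and RUNX2 alone at 40. At co-bound kept sites all 3 were called in 53.6% (odds ratio 0.744, interval 0.525 to 1.05, exact-test adjusted p = 0.419), and none in 1 of 140 (0.714%; odds ratio 10.6, interval 1.46 to 76.4, exact-test adjusted p = 0.00562). The call for sites with none rests on that 1 site and was not made when overlaps of at least 100 bp were required (exact-test adjusted p = 0.212). The tests of all 3 and of none against kept sites both include RXR. Neither is independent of the choice of kept sites by VDR in differentiated cells. At VDR-free co-bound sites all 3 were called less often (26.4%; odds ratio 2.39, interval 1.92 to 2.99, exact-test adjusted p = 8.87e-15) and none more often (13.5%; odds ratio 0.488, interval 0.353 to 0.675, exact-test adjusted p = 7.13e-05).

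**Figure D3:**
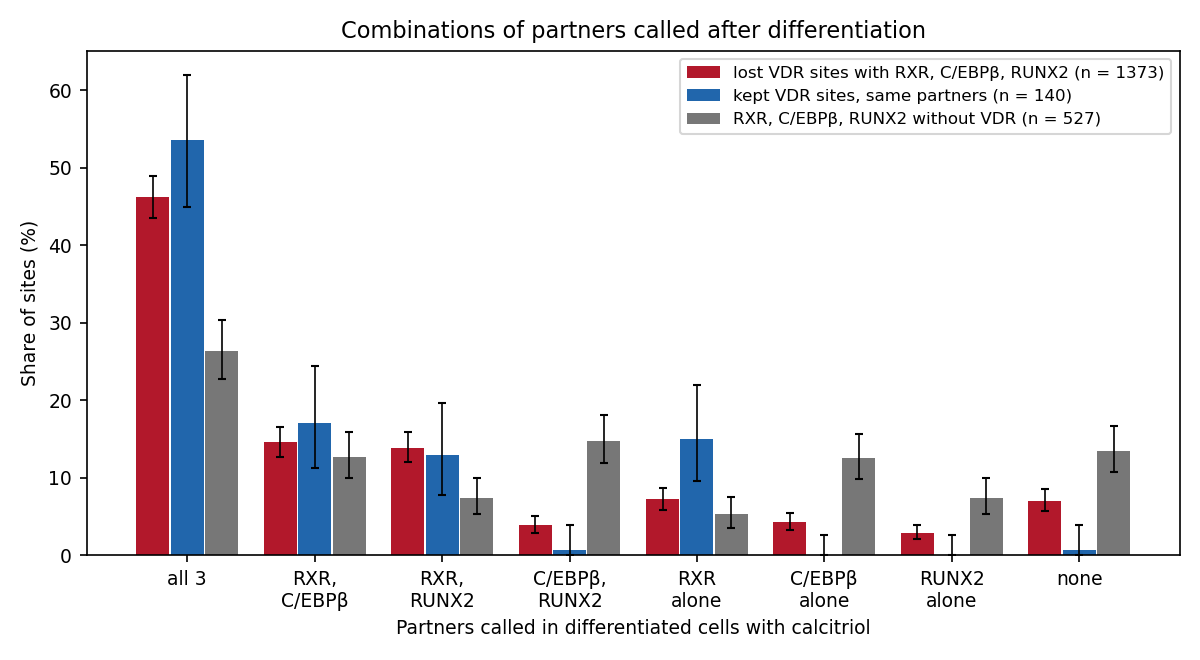
Share of sites (%, bars, with exact 95% intervals) by the combination of RXR, C/EBPβ and RUNX2 called in differentiated cells with calcitriol, for co-bound lost, co-bound kept and VDR-free co-bound sites. All 3 partners form the tallest bar in each group, at 46.2%, 53.6% and 26.4%.

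The partners tended to be called again at the same co-bound lost sites. The pairs were tested at these sites only, so the tendency is not shown to be particular to them. RXR was called at 825 of 918 sites with RUNX2 (89.9%) and at 299 of 455 without it (65.7%; odds ratio 4.63, interval 3.47 to 6.18, exact-test adjusted p = 8.48e-26 over 3 pairs). RXR was called at 88.2% of sites with C/EBPβ and 67.9% without it (odds ratio 3.52, interval 2.65 to 4.67, exact-test adjusted p = 6.49e-18). C/EBPβ was called at 74.8% of sites with RUNX2 and 56.9% without it (odds ratio 2.25, interval 1.77 to 2.86, exact-test adjusted p = 2.78e-11). Strength of enrichment at a site could not be read from these lists, and its part in the result was not tested.

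DR3, RUNX and C/EBP elements were each more frequent at co-bound lost sites than in flanking DNA. DR3 was much rarer than at co-bound kept sites, which were chosen by VDR calls in both states. Both strands of 200 bp about the VDR centre (the RXR centre for VDR-free sites) were searched, as were windows of that length lying 2 kb away on each flank. A RUNX match was either TGTGGTT or TGTGGTC, or else TGCGGTT or TGCGGTC, and a C/EBP match was TTGCNNAA or TTACNNAA. The motif of AP-1, the Fos and Jun factors, was TGACTCA, and that of TEAD factors, which act in the Hippo pathway, was GGAATG. At most 1 mismatch was allowed for DR3 and none for the others. Each motif's share is set beside that of all 44553 site windows of the 4 undifferentiated factor lists with calcitriol. A C/EBP match can overlap a RUNX match, as at Csf1.

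A DR3 match was found at 47 co-bound lost sites (3.42%, 2.53 to 4.53), against 0.838% of their flanking windows and 4.67% of all site windows. At co-bound kept sites it was found in 47 of 140 (33.6%, 25.8 to 42.0), so the kept sites had the element many times more often (odds ratio 0.0701, interval 0.0445 to 0.111, exact-test adjusted p = 1.48e-25). Lost sites with 1 partner also had it more often (6.41%; odds ratio 0.518, interval 0.361 to 0.743, exact-test adjusted p = 6.36e-04). VDR-free co-bound sites had it in 5 of 527 (0.949%; odds ratio 3.70, interval 1.46 to 9.36, exact-test adjusted p = 0.00506), a call that was not made in 100 bp windows (odds ratio 2.98, interval 0.890 to 9.95, exact-test adjusted p = 0.117). Kept and VDR-free sites were chosen by the presence or absence of VDR calls, and DR3 is the classical VDR element. The DR3 tests against these groups are therefore not independent of that choice, and no conclusion is drawn from them. Exact DR3 matches were rare. They were found at 6 co-bound lost sites and 3 co-bound kept sites. With exact matches the difference from kept sites was not called (0.437% against 2.14%; odds ratio 0.200, interval 0.0496 to 0.810, exact-test adjusted p = 0.198), and the direction against lost sites with 1 partner turned (0.437% against 0.214%; odds ratio 2.05, exact-test adjusted p = 0.417).

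The exact DR3 matches are printed with 10 bases to either side, 5′ to 3′ on the strand that matches, with the element in capitals, under the nearest gene. The first set is from co-bound lost sites, where 1 site holds a pair of matches.
Tlr5 (chr1:184899482-184899516, plus strand): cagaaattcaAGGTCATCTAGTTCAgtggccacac
Gm6576 (chr15:26963178-26963212, plus strand): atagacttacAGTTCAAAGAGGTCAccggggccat
Heg1 (chr16:33660274-33660308, plus strand): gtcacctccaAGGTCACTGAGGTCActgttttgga
4933411K16Rik (chr19:42127718-42127752, plus strand): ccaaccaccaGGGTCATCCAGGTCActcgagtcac
4933411K16Rik (chr19:42127754-42127788, plus strand): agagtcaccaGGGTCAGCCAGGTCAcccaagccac
Sesn3 (chr9:13897359-13897393, plus strand): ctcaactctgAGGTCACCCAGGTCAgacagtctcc
Tpm1 (chr9:67008366-67008400, plus strand): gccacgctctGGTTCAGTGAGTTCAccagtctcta
The second set is from co-bound kept sites.
Ksr1 (chr11:78895094-78895128, minus strand): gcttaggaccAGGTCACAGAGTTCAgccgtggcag
Slc6a6 (chr6:91557741-91557775, plus strand): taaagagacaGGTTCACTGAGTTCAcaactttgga
Pbp2 (chr6:135269805-135269839, plus strand): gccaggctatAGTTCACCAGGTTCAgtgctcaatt
In differentiated cells RXR was called at those lost sites near Tlr5, Heg1 and Sesn3, and the intronic site near Heg1 had all 3 partners. The lost sites near Gm6576, 4933411K16Rik and Tpm1 had none of the partners there. The centre of the site with the pair of matches lies in an exon, 1.02 kb from the start of 4933411K16Rik. All 3 kept sites had RXR, and those near Ksr1 and Slc6a6 had all 3 partners.

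RUNX matches were present at 588 co-bound lost sites (42.8%), against 9.03% of flanks and 31.1% of all site windows. This was more than at lost sites with 1 partner (31.7%; odds ratio 1.62, interval 1.38 to 1.89, exact-test adjusted p = 5.93e-09), of which some lacked RUNX2. Against kept sites (32.9%; odds ratio 1.53, interval 1.06 to 2.21, exact-test adjusted p = 0.113) and VDR-free co-bound sites (46.9%; odds ratio 0.849, interval 0.694 to 1.04, exact-test adjusted p = 0.164) the difference did not pass the test. Over 1 kb from starts it was called against kept sites (odds ratio 1.65, exact-test adjusted p = 0.0450) and VDR-free sites (0.778, exact-test adjusted p = 0.0429), and in 100 bp windows against VDR-free sites (0.700, exact-test adjusted p = 0.00447). C/EBP matches were present at 369 sites (26.9%), against 15.6% of flanks and 31.6% of all site windows. The share was 14.4% at lost sites with 1 partner (odds ratio 2.18, interval 1.80 to 2.63, exact-test adjusted p = 4.97e-15), 27.9% at kept sites and 26.8% at VDR-free co-bound sites, and the last 2 did not pass the test. Most lost sites with 1 partner had no C/EBPβ, and the rest had no RUNX2. The rule gives co-bound lost sites both partners, so RUNX and C/EBP tests against sites with 1 partner are not independent of it. No conclusion is drawn from those tests. An AP-1 match was found at 12.8% of co-bound lost sites (flanks 3.24%, all site windows 11.6%) and a TEAD match at 27.9% (flanks 11.4%, all site windows 20.9%), with no called difference from any comparison group. No match to DR3, RUNX or C/EBP was found at 547 sites (39.8%), and 6 sites (0.437%) held all 3.

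**Figure D4:**
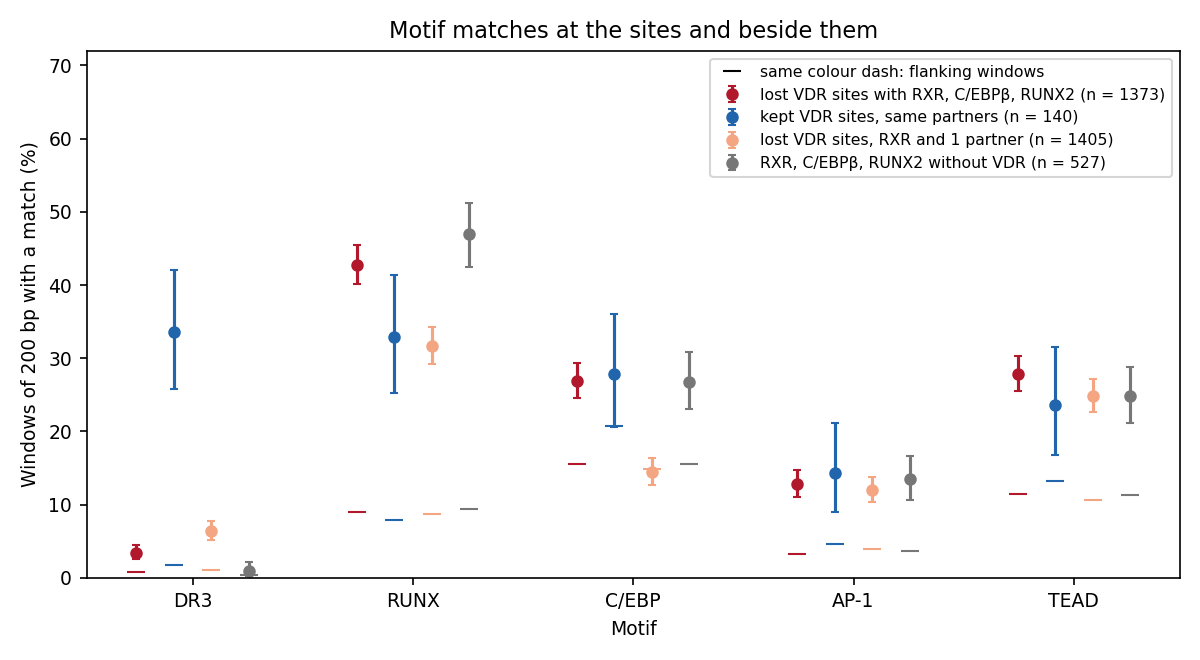
Share of 200 bp windows (%) with a match to each motif at co-bound lost sites and the 3 comparison groups (points, exact 95% intervals) and in their flanking windows (dashes of the same colour). DR3 is at 3.42% of co-bound lost sites and at 33.6% of kept sites, and at co-bound lost sites the DR3, RUNX and C/EBP points all lie above their flanks (0.838%, 9.03% and 15.6%).

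Among the co-bound lost sites, C/EBPβ and RUNX2 were each called again more often where their own element was present. C/EBPβ was called in differentiated cells at 297 of 369 sites with a C/EBP match (80.5%) and at 649 of 1004 without one (64.6%; odds ratio 2.26, interval 1.69 to 3.01, exact-test adjusted p = 1.02e-07 over 24 tests). RUNX2 was called at 442 of 588 sites with a RUNX match (75.2%) and at 476 of 785 without one (60.6%; odds ratio 1.97, interval 1.55 to 2.49, exact-test adjusted p = 1.02e-07). RXR did not follow DR3 in that way. It was called at 33 of 47 sites with a DR3 (70.2%, 55.1 to 82.7) and at 82.3% of the others (odds ratio 0.508, interval 0.267 to 0.964, exact-test adjusted p = 0.154). RUNX2 was called at 22 of the 47 sites with a DR3 (46.8%), less often than at the others (67.6%; odds ratio 0.422, interval 0.235 to 0.758, exact-test adjusted p = 0.0203). A DR3 was found at 12 of the 97 sites with no partner left (12.4%, 6.56 to 20.6) and at 2.84% of the 634 sites with all 3, a difference that was not tested.

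RXR under vehicle in undifferentiated cells also divided the co-bound lost sites. Where it was called, RXR was found in differentiated cells with calcitriol at 1023 of 1209 sites (84.6%), and where it was not, at 101 of 164 (61.6%; odds ratio 3.43, interval 2.41 to 4.87, exact-test adjusted p = 1.04e-09). RUNX2 was called at 69.5% of the first and 47.6% of the second (odds ratio 2.51, interval 1.80 to 3.49, exact-test adjusted p = 4.59e-07). For C/EBPβ the shares were 69.5% and 64.6%, and the difference did not pass the test (exact-test adjusted p = 0.419).

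Nearly all co-bound lost sites lay within regions of H3K4me1 and H4K5ac in both states. In differentiated cells H3K4me1 covered 1372 sites (99.9%) and H4K5ac 1361 (99.1%), and in undifferentiated cells they covered 1369 (99.7%) and 1370 (99.8%). All undifferentiated RXR sites were almost as fully covered, with H3K4me1 at 98.7% and 97.8% and H4K5ac at 97.2% and 98.7%, in differentiated and undifferentiated cells in that order. The regions of these marks that held a co-bound lost site were long, with a median width in differentiated cells of 15982 bp for H3K4me1 and 23964 bp for H4K5ac, where all regions of the lists had medians of 3936 and 4723 bp. A longer region is more likely to hold a site. H3K9ac, an acetylation of active promoters and enhancers, lay at more sites in differentiated cells, with 1198 (87.3%), against 931 (67.8%) in undifferentiated cells. It was present in differentiated cells only at 285 sites and in undifferentiated cells only at 18. For all RXR sites the shares were 82.3% and 65.8%, and the differentiated H3K9ac list is also the longer one, with 22868 against 17189 regions.

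H3K4me3 was scarce at co-bound lost sites. It lay at 55 sites in differentiated cells (4.01%) and at 163 in undifferentiated cells (11.9%), where all RXR sites had 18.5% and 24.2%. The median width of H3K4me3 regions holding a co-bound lost site was 2654 bp in differentiated and 19684 bp in undifferentiated cells. All H3K4me3 regions had medians of 2225 bp in differentiated and 5256 bp in undifferentiated cells, so regions of the undifferentiated list were wider in general. H3K36me3 lay at 274 sites in differentiated (20.0%) and 439 in undifferentiated cells (32.0%), near the 20.1% and 28.5% of all RXR sites. Without a replicate list in either state these differences between states have no test.

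**Figure D5:**
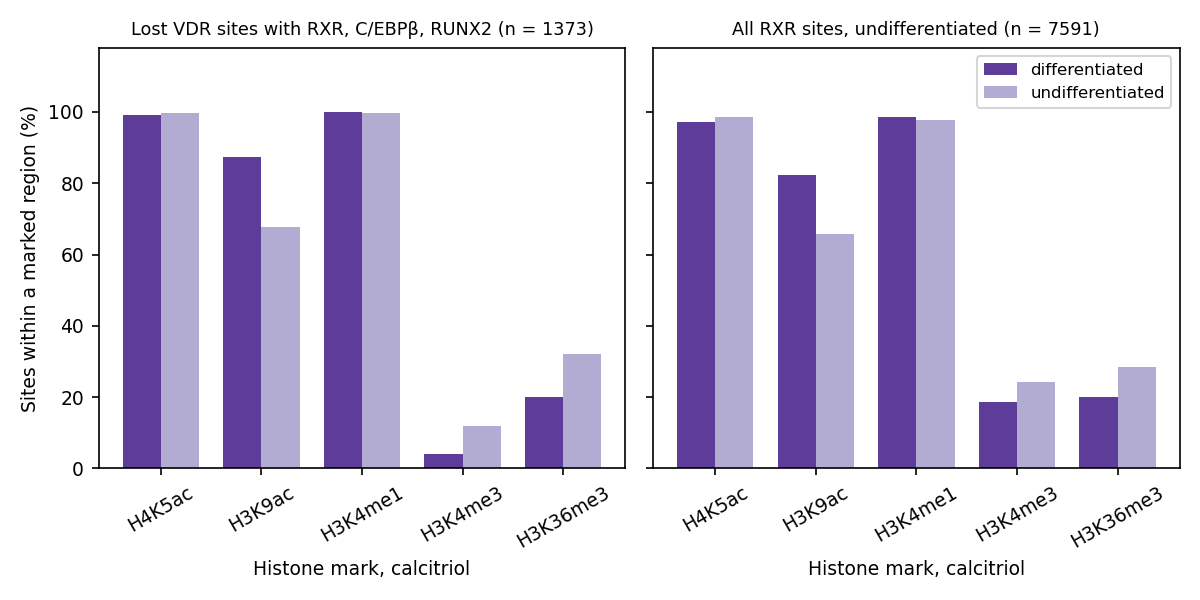
Share of sites (%, bars from 0) that lie in a region of each histone mark in differentiated (dark) and undifferentiated cells (light), for the 1373 co-bound lost sites and for all 7591 RXR sites of undifferentiated cells. H3K9ac is higher in differentiated cells in both panels, at 87.3% against 67.8% for co-bound lost sites, and H3K4me3 is lower at co-bound lost sites than at all RXR sites.

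Between co-bound lost and co-bound kept sites none of the 10 mark shares passed the test with all regions used, with H3K9ac in differentiated cells at 87.3% of lost and 90.7% of kept sites (odds ratio 0.701, interval 0.388 to 1.27, exact-test adjusted p = 0.688). When the lowest 25% of regions by the authors' score were left out, this difference was called (75.5% against 87.1%; odds ratio 0.454, interval 0.272 to 0.755, exact-test adjusted p = 0.00722). H3K4me3 in differentiated cells was less frequent at co-bound lost sites than at lost sites with 1 partner (4.01% against 9.68%; odds ratio 0.389, interval 0.282 to 0.538, exact-test adjusted p = 1.08e-08) and than at VDR-free co-bound sites (15.4%; odds ratio 0.230, interval 0.160 to 0.329, exact-test adjusted p = 7.05e-15). Over 1 kb from starts, the H3K4me3 call against sites with 1 partner was lost (1.38% against 2.57%; odds ratio 0.533, exact-test adjusted p = 0.0546). H3K9ac in differentiated cells was more frequent than in both of those groups (83.1% and 82.2%; odds ratios 1.39, interval 1.12 to 1.72, and 1.49, 1.13 to 1.95; exact-test adjusted p = 0.00445 and 0.00994). Neither H3K9ac difference was called without the lowest 25% of regions by score. H4K5ac in differentiated cells was also called against VDR-free sites (99.1% against 97.7%, exact-test adjusted p = 0.0336). So was H3K4me1 there (99.9% against 99.1%, exact-test adjusted p = 0.0132).

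The co-bound lost sites that had no partner in differentiated cells also had H3K9ac less often there. It was present at 574 of 634 sites with all 3 partners (90.5%) and at 62 of 97 with none (63.9%; odds ratio 5.40, interval 3.30 to 8.84, exact-test adjusted p = 1.68e-09 over 10 marks). In undifferentiated cells, where the rule gives every site all partners, the shares were 68.9% and 53.6% (odds ratio 1.92, interval 1.24 to 2.96, exact-test adjusted p = 0.0123). H4K5ac in differentiated cells was at 99.8% and 93.8% (exact-test adjusted p = 1.49e-04). H3K4me1 covered 96 of the 97 sites with no partner in differentiated cells, in each state.

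Co-bound lost sites were distal. A protein-coding start lay within 1 kb of 73 sites (5.32%), where 18.9% of all undifferentiated RXR sites had one, and 493 others (35.9%) were intronic, 789 (57.5%) intergenic and 18 (1.31%) exonic. The share near a start was lower than at lost sites with 1 partner (11.2%; odds ratio 0.443, interval 0.332 to 0.591, exact-test adjusted p = 3.91e-08) and at VDR-free co-bound sites (16.1%; odds ratio 0.292, interval 0.210 to 0.407, exact-test adjusted p = 3.19e-12). At kept sites it was 3.57% (odds ratio 1.52, interval 0.602 to 3.82, exact-test adjusted p = 0.835). The median distance to a start was 34.3 kb at co-bound lost sites and 34.0 kb at kept sites. Most sites stood alone: 1141 had no other within 12.5 kb, and 232 (16.9%) lay in 106 groups of 2 or more. The largest groups had 4 sites each, nearest to Scgb1a1, Galk2 and Tsga14, and RXR was called in differentiated cells at all 12 of their sites.

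Co-bound lost sites lay near genes of most of the chosen lists, with the highest share for bone matrix. Of 22208 protein-coding genes, 2246 (10.1%) had such a site within 100 kb of a start, and 58 of the 175 annotated genes on the chosen lists (33.1%) did. By list the counts were 16 of 25 for bone matrix and mineralization, 9 of 22 for BMP and TGF-beta signalling, 11 of 27 for the vitamin D response and 5 of 13 for osteoclast coupling and cytokines. They were 7 of 20 for osteoblast transcription factors, 3 of 9 for the IGF system, 4 of 13 for matrix turnover, 5 of 17 for AP-1 and growth arrest and 4 of 22 for Wnt signalling. Of the lists for other cell types, chondrocyte genes had 3 of 8, adipocyte genes 1 of 8 and genes of blood and endothelium 0 of 8. The median number of sites per gene was 1.00 for bone matrix genes and 0 for each of the other lists and for all protein-coding genes. The lists were chosen with earlier results known and were not tested, and neighbouring genes can share a site.

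Among matrix genes, Col1a2, which encodes a chain of type I collagen, had 4 co-bound lost sites, the nearest 16.3 kb from its start. RXR was called in differentiated cells at 4 of them, C/EBPβ at 3 and RUNX2 at 3, and VDR sites within 100 kb numbered 0 in differentiated and 8 in undifferentiated cells. Dmp1, an acidic matrix protein of osteocytes, had 2, the nearest 0.929 kb from its start, and these were its only VDR sites within 100 kb. Ibsp, bone sialoprotein, shares both of these sites with Dmp1 and had 0 VDR sites in differentiated against 5 in undifferentiated cells. Mgp, an inhibitor of matrix calcification, had 2 co-bound lost sites, with 1 VDR site in differentiated and 14 in undifferentiated cells. Col5a2, a chain of type V collagen, had 2, and Col3a1, the type III collagen chain, had 1 at 2.52 kb, each with 0 VDR sites in differentiated cells. Spp1, osteopontin, had 1 at 6.60 kb and had 4 VDR sites in differentiated against 11 in undifferentiated cells. Sparc, osteonectin, had 1 at 8.20 kb, with 1 VDR site in differentiated and 3 in undifferentiated cells.

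Among genes that act on osteoclasts, Csf1 had 4 co-bound lost sites, the nearest 9.50 kb from its start, all 4 with RXR in differentiated cells. Its VDR sites within 100 kb numbered 1 in differentiated and 11 in undifferentiated cells. Tnfsf11, the gene of RANKL, the chief inducer of osteoclast formation, had 2, the nearest 22.6 kb upstream. Both had RXR and C/EBPβ in differentiated cells and 1 had RUNX2, and VDR sites within 100 kb numbered 0 in differentiated and 6 in undifferentiated cells. Tnfrsf11b, which encodes the RANKL decoy osteoprotegerin, had 1 co-bound lost site 0.212 kb from its start, with all 3 partners in differentiated cells. This was the only VDR site within 100 kb of its start. Sema3a, a semaphorin that restrains osteoclasts, had 2, both with RXR and C/EBPβ.

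Among signalling genes, Tgfbr3, the TGF-beta co-receptor betaglycan, had 3 co-bound lost sites, 2 of them with RXR and 3 with RUNX2, and 2 VDR sites were called near it in differentiated against 8 in undifferentiated cells. Wisp2, a CCN family gene, had 2, and Thbd, thrombomodulin, had 2. Smad6, an inhibitory Smad, had 1 at 0.0550 kb from its start, where C/EBPβ alone was called in differentiated cells. Igfbp5, an IGF binding protein, and Nfkb1, an NF-kappa-B subunit, had 1 each with all 3 partners. Timp2, an inhibitor of metalloproteinases, had 1 with RXR and C/EBPβ, and Cdkn1b, the cell cycle inhibitor p27, had 1 with C/EBPβ alone. Matn3, a cartilage matrix protein, had 2 sites, both with RXR and RUNX2.

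Among transcription factor genes, Cebpb, which encodes C/EBPβ itself, had 2 co-bound lost sites with RXR and C/EBPβ at both, and 1 VDR site in differentiated against 9 in undifferentiated cells. Cebpa, a related factor of adipocytes, had 1 at 0.166 kb from its start with all 3 partners. The site 9.19 kb from a start of Vdr had no partner called in differentiated cells, where 1 VDR site lay within 100 kb, against 5 in undifferentiated cells. Over the 58 list genes, 39 had no VDR site within 100 kb in differentiated cells. Over all 2246 genes near a co-bound lost site, 1703 (75.8%) had none. Neither count is set beside a share over all protein-coding genes, so neither is read as a trait of these genes. Differentiated cells had 871 VDR sites with calcitriol, against 7000 in undifferentiated cells. The same list lengths bear on the VDR site counts given for single genes, all taken within 100 kb.

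By nearest start, 990 genes were assigned a co-bound lost site, 738 of them a single one. Zfp608 was nearest to 11, and had 2 within 100 kb of a start. Rnd3 was nearest to 7, and Gm9747 and Gsdmc to 6 each. Next came 4930558K02Rik, Rbpj, Map4k3, 2610203C20Rik, Cobl, Adamts5 and Myc with 5 each. Rbpj is the DNA-binding effector of Notch, Cobl an actin nucleator and Adamts5 an aggrecanase. Myc, Adamts5, Gm9747 and Gsdmc had no co-bound lost site within 100 kb, while Rbpj had 5. Within 100 kb of Rbpj, 0 VDR sites were called in differentiated and 7 in undifferentiated cells.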

How the data were processed

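ChIP-seq region lists of MC3T3-E1 cells were used: 12 lists of 4 factors and 10 of 5 histone marks, 22 in all, with 1 list per group. The tools were Bowtie and HOMER with mm9, per the submitters' processing notes. Their versions and settings are not given in the sources used. Each list is an overlap of replicates, per the deposited names. The score the authors deposited was 0 in all 12 factor lists, whose regions were 201 bp wide. In histone lists its meaning is not given, and it was used once, to leave out the lowest 25% of regions. No read counts were used, so depth is unknown and list length can reflect depth or enrichment as well as binding.

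Regions on chromosomes 1 to 19 and X lay inside the NCBIM37 (mm9) sequence in all 22 lists, and starts came from GENCODE vM1. Overlaps, motif searches and tests were made in Python 3.11.15 with numpy 2.4.6, scipy 1.17.1 and pysam 0.24.0, and tested on simulated data. Members, gene lists and tests were chosen with earlier results of these data known. Named genes were up to 25 list genes with most sites within 100 kb, then by distance, and the 10 genes nearest to most sites, with ties; 1 gene under this rule is not reported here. Cebpd was not in the annotation.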

Additional observations from a re-analysis of the deposited data

How the results depend on the processing

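Directions and calls mostly held across the alternatives. Requiring 100 bp for every overlap left 856 of the 1373 sites and kept the RXR, C/EBPβ and RUNX2 calls. Calls that ended were no partner at lost against kept sites (odds ratio 6.60) and H3K4me1 in differentiated cells against VDR-free sites (6.14). H3K4me1 in undifferentiated cells against sites with 1 partner (2.74) was no longer called either. Away from starts by over 1 kb, RUNX matches were called against kept sites (1.65) and against VDR-free sites (0.778). H3K4me3 in differentiated cells against sites with 1 partner (0.533), and H4K5ac (2.71) and H3K4me1 (5.90) in differentiated cells against VDR-free sites, were no longer called. Nor was H3K4me3 in undifferentiated cells against sites with 1 partner (0.893) or VDR-free sites (0.833). H3K9ac in undifferentiated cells became called against VDR-free sites (1.39). Without the lowest 25% of scores H3K9ac in differentiated cells was called against kept sites (0.454) and not against sites with 1 partner (1.20) or VDR-free sites (1.26). In undifferentiated cells H3K9ac was no longer called against sites with 1 partner (1.14), and H4K5ac became called against VDR-free sites (2.93). In 100 bp windows DR3 was not called against VDR-free sites (2.98) and RUNX was (0.700). With exact DR3 matches the odds ratio was 0.200 against kept sites, no longer called, and reversed to 2.05 against sites with 1 partner. Genes with a site within 50 kb numbered 1274, and within 10 kb 338, of which 16 were list genes. The causes of these changes were not tested. Leaving out sites with a differentiated VDR site within 1 kb, chosen after the data had been seen, changed no call among the 61 comparisons. Exact tests on 140 kept sites leave wide intervals. No paired analysis was possible because each group has 1 list and no replicate numbers in the labels.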

Other observations

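Co-bound lost sites were rare on the X chromosome. There were 3 of them among its 79 undifferentiated VDR sites (3.80%), whereas on each autosome they made up between 15.2% (chromosome 13) and 24.4% (chromosome 19) of VDR sites. Of the 54 lost calcitriol-only VDR sites on X, 33.3% had RXR, 29.6% C/EBPβ and 22.2% RUNX2, against 59.6%, 45.1% and 55.5% of those on the autosomes. The X chromosome held 1.13% of undifferentiated VDR sites with calcitriol, 0.593% of RXR, 1.55% of C/EBPβ and 0.708% of RUNX2 sites. These values were noticed after the data had been seen and were not tested.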
